A study of Homo sapiens with 6 samples.

Results

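Tight junctions, desmosomes and the polarity complex hold epithelial cells together and set their upper and lower faces. Here 35 genes of these structures were followed in cell lines described as lung cancer lines, carrying either an empty or a malin vector. The members were listed by function: 10 claudins, 10 other tight junction genes, 10 desmosomal genes, 4 polarity genes and EPCAM, the epithelial cell adhesion molecule. Of the 35, 34 had a row in tables of 19903 genes, and PKP1, a plakophilin, was not analysed here. Malin, encoded by NHLRC1, is an E3 ubiquitin ligase known for its part in glycogen metabolism. Messenger RNA was sequenced from A549, H1299 and another line with the label H2030, all described as lung cancer lines from ATCC at passage 5, with 1 library for each line and vector. The groups were A549 with empty vector or with NHLRC1 overexpression, H1299 with empty vector or with NHLRC1 overexpression, and the line labelled H2030 with the same vectors. Every value is an FPKM, the number of fragments scaled to transcript length and library total, so that levels of different genes can be set side by side. Paired values give the empty-vector library first and the malin library next.

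Tight junctions seal the space between neighbouring cells near their apical side. Claudins are their sealing or pore-forming strands, occludin and the other MARVEL-domain proteins are membrane partners, JAM-family proteins are immunoglobulin-like adhesion molecules, and ZO scaffolds and cingulin tie the strands to actin. Desmosomes join the keratin filaments of neighbouring cells through desmogleins and desmocollins, with plakoglobin and plakophilins as linkers and desmoplakin as the anchor. PAR3, PAR6 and atypical protein kinase C form the PAR complex, which marks the apical border in epithelia.

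The libraries themselves differed in ways that touch the comparison of lines. Depth, estimated from the spacing of low values, was 8310000 to 10620000 fragments per library. NHLRC1 was at 1.21 and 6.82 FPKM in A549 with empty vector and with malin, at 2.85 and 119.2 in H1299, and at 0.18 and 3.69 in the libraries labelled H2030. The column of the malin library labelled H2030 was headed with a name for the embryonic kidney line HEK293T, in conflict with its label. The keratins KRT7 and KRT19 were at 1301.6 and 42 FPKM in A549 with empty vector. Both were low in the other lines, at 1.24 or less in H1299 and at 0.66 or less in the libraries labelled H2030. KRT8 and KRT18 were at 921 to 1334 FPKM in A549, at 225 to 726 in H1299, and at 72.9 to 88.2 in the libraries labelled H2030. The neurofilament gene NEFM stood at 30.5 and 52.6 FPKM in those libraries and at 2.11 or less in the other lines. NEFL was also highest there (23.4 and 31.7), while INA was lowest there (9.30 and 6.12, against 22.9 to 43.7) and NEFH was highest in H1299 (7.20 and 8.77, against 0.44 or less), so the neuronal list did not go 1 way. The lung surfactant genes SFTPB and SFTPC were at 0.11 FPKM or less in every library, and NKX2-1, a lung transcription factor, was listed at 0 in both A549 libraries, at 0.77 and 0.60 in H1299, and highest in the libraries labelled H2030, at 1.85 and 3.78. Of 4 immune and 4 fibroblast markers 3 each were in the tables, and all 3 endothelial markers. Immune markers summed to between 0.22 and 2.28 FPKM per library and endothelial markers to between 0.03 and 0.23, with the leukocyte gene PTPRC at 0.07 or less. Fibroblast markers summed to 0.23 to 2.09 FPKM in A549 and H1299 and to 8.32 and 11.5 in the libraries labelled H2030, mostly COL1A1 (6.35 and 9.05), with DCN at 0.25 or less in every library. Whether any of these marker differences bears on the junction genes was not tested.

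All 34 members were detected in at least 1 library, and 33 reached 1 FPKM somewhere. The members at or above 1 FPKM numbered 29 and 27 in A549 with empty vector and malin, 22 and 22 in H1299, and 26 and 26 in the libraries labelled H2030. Over all 19903 genes the counts were 11921 and 11861, 11975 and 12039, and 13179 and 12992 in the same order. The line means of 23 members spanned at least 2-fold on the log2(FPKM+1) scale. By line mean, 16 members were highest in the libraries labelled H2030, 13 in A549 and 5 in H1299, and 16 were lowest in H1299. Over the 12184 genes tested below, 63.2% were lower in A549 than in the libraries labelled H2030, and 60.8% were lower in H1299 than there. A549 was lower than H1299 in 54.8%. Spans and orders of line means were not counted over all genes, so these counts are descriptions. Lines were compared with limma on log2(FPKM+1) of 12184 protein-coding genes with a mean of at least 1 FPKM, and a difference was called at an adjusted p of at most 0.05 and at least 2-fold. Of the 34 members, 27 passed that filter. CLDN3, CLDN6 and MARVELD3 passed through 1 line only, as their line means were below 1 FPKM in the others. That line therefore had to be the highest, though not by 2-fold. EPCAM also reached the filter only with the libraries labelled H2030 (8.55 and 5.41 FPKM, against 0.17 to 1.75 in the others). Counts over the 27 are therefore descriptions. Each line is represented by its empty-vector and its malin library, and no label says whether these came from separate cultures, so the p-values measure the spread between these libraries. RNA from a bulk culture cannot tell fewer cells of a type from less RNA per cell.

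The claudins of the 3 lines were made up differently. CLDN1, a sealing claudin, was at 46.6 and 59.8 FPKM in A549 with empty vector and malin, at 28.5 and 27.3 in H1299, and at 1.02 and 0.89 in the libraries labelled H2030. Its level in each A549 library thus lay above both H1299 libraries, and the libraries labelled H2030 lay far below all others. The log2 difference of CLDN1 was 4.78 ± 0.15 (limma's moderated SE, 2 libraries per line) for A549 minus labelled H2030 (adjusted p = 9.22e-06) and 3.89 ± 0.15 for H1299 minus labelled H2030 (adjusted p = 2.03e-05). Between A549 and H1299 it was 0.90 ± 0.15 (limma, adjusted p = 0.00318), short of 2-fold. In the libraries labelled H2030 an estimated 29 and 30 fragments stood behind CLDN1, against 1619 and 2108 in A549. CLDN6, a claudin known from embryonic epithelia, went the other way. It was at 6.66 and 8.74 FPKM in the H2030-labelled libraries and at 0.23, 0.15, 0.15 and 0 in the A549 and H1299 libraries, values that rest on an estimated 3, 2, 2 and 0 fragments. The libraries labelled H2030 do not overlap the others in CLDN6, which passed the filter through them only. CLDN12, a claudin that lacks the usual PDZ-binding tail, was at 35.7 and 38.8 FPKM in H1299, at 12.6 and 11.5 in A549, and at 17.4 and 17.2 in the libraries labelled H2030. Its log2 difference was -1.55 ± 0.11 for A549 minus H1299 (limma, adjusted p = 0.000152) and 1.06 ± 0.11 for H1299 minus labelled H2030 (limma, adjusted p = 0.000467).

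**Figure D1:**
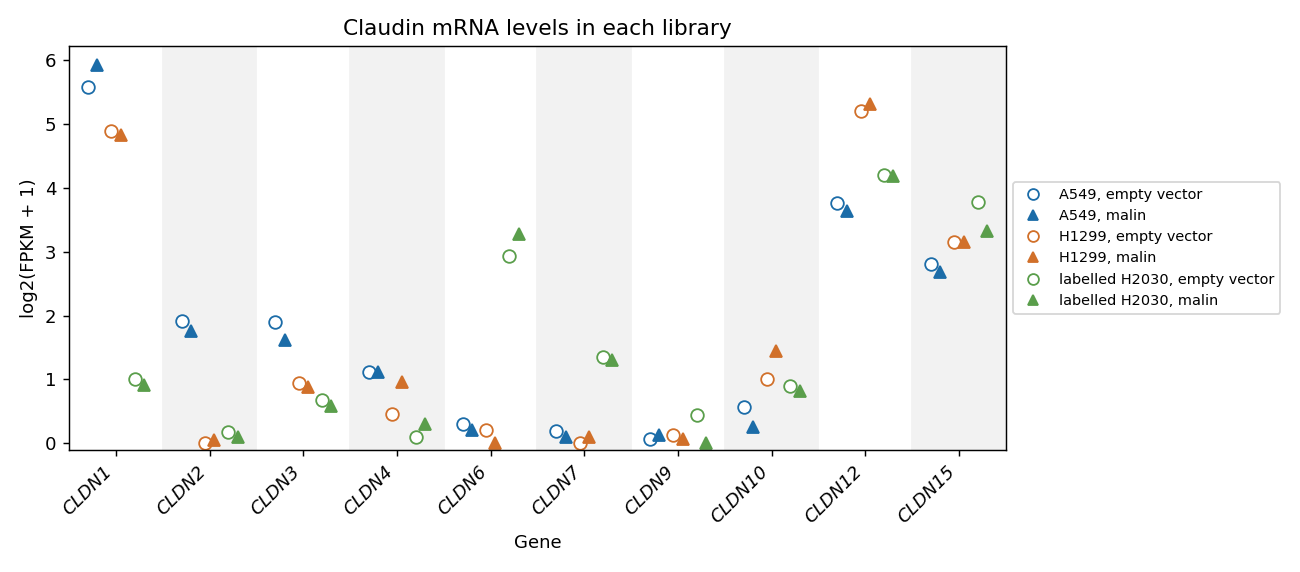
Levels of the 10 claudins in each library, as log2(FPKM + 1) on the vertical axis and by gene on the horizontal axis, with open circles for empty vector and triangles for malin. CLDN1 is low and CLDN6 high in the libraries labelled H2030, and CLDN12 is highest in H1299.

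The less abundant claudins also divided by line. CLDN2, a cation and water pore, was at 2.79 and 2.40 FPKM in A549, at 0 and 0.04 in H1299, and at 0.13 and 0.07 in the libraries labelled H2030, below the filter. CLDN3, a sealing claudin, was at 2.73 and 2.06 FPKM in A549, at 0.93 and 0.84 in H1299 and at 0.60 and 0.50 in the libraries labelled H2030. The log2 difference of CLDN3 for A549 minus labelled H2030 was 1.12. CLDN7 reached 1.54 and 1.46 FPKM in the H2030-labelled libraries and was at 0.14 or less elsewhere. CLDN4 lay between 0.07 and 1.18 FPKM, CLDN9 between 0 and 0.36, and CLDN10 between 0.20 and 1.72, too low for the filter. The H1299 values of CLDN4, 0.38 and 0.94 FPKM, rest on an estimated 7 and 16 fragments (95% exact Poisson intervals 0.153 to 0.785 and 0.535 to 1.52 FPKM, counting error only). These intervals overlap. CLDN15, a cation pore of the gut, was at 5.39 to 7.90 FPKM in A549 and H1299 and at 12.8 and 9.04 in the libraries labelled H2030, without a 2-fold difference.

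As a share of the summed FPKM of the 10 claudins, CLDN1 made up 63.9% and 72.2% in A549, 38.2% and 35.1% in H1299, and 2.46% and 2.29% in the libraries labelled H2030. CLDN12 made up 17.3% and 13.8%, 47.8% and 50.0%, and 42.1% and 44.2% in the same order. CLDN6 accounted for 16.1% and 22.5% of the sum in the libraries labelled H2030, and CLDN15 for 30.8% and 23.2%. CLDN1 therefore led in A549, CLDN12 led in H1299 and in the libraries labelled H2030, and CLDN6 contributed visibly in the latter. The sums were 72.8 and 82.8 FPKM in A549, 74.6 and 77.6 in H1299, and 41.5 and 38.9 in the libraries labelled H2030.

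**Figure D2:**
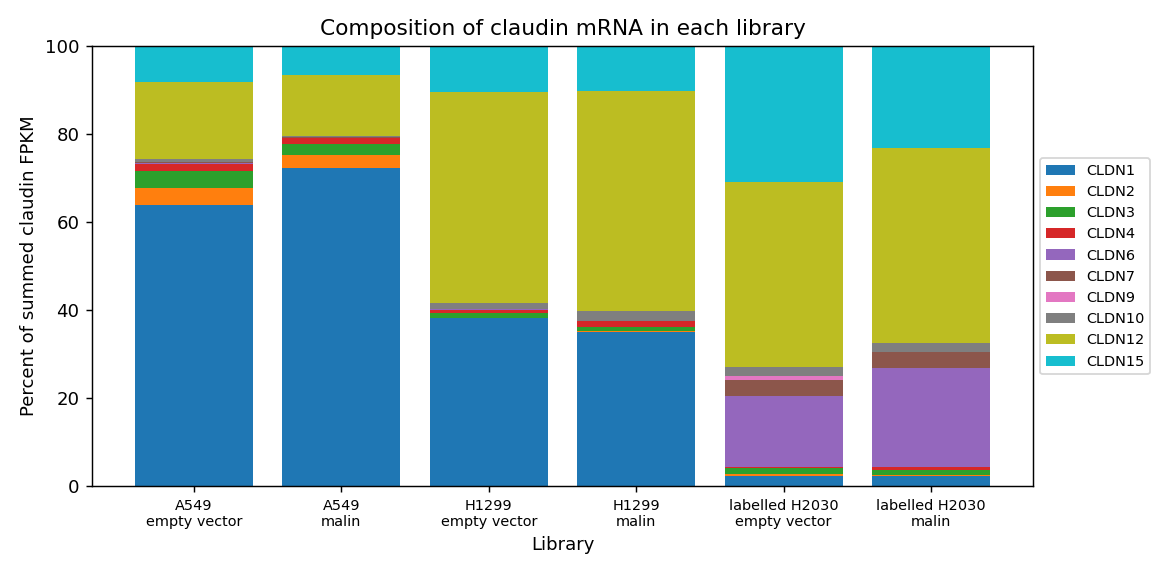
Share of each of the 10 claudins in the summed claudin FPKM of a library, in percent on the vertical axis, with 1 stacked bar per library on the horizontal axis. CLDN1 makes up 63.9% and 72.2% of the A549 bars and 2.46% and 2.29% of the bars labelled H2030.

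Among the other membrane proteins of the tight junction, several were lower in A549 or higher in the libraries labelled H2030. JAM3, a junctional adhesion molecule, was at 3.24 and 4.15 FPKM in A549, at 19.3 and 19.8 in H1299, and at 28 and 25.9 in the libraries labelled H2030. The A549 libraries are separate from the rest, with log2 differences of -2.14 ± 0.14 for A549 minus H1299 (limma, adjusted p = 9.61e-05) and -2.58 ± 0.14 for A549 minus labelled H2030 (limma, adjusted p = 4.12e-05). CXADR, the coxsackievirus and adenovirus receptor, was at 5.26 and 4.09 FPKM in A549, 5.12 and 5.10 in H1299, and 13.3 and 14.0 in the libraries labelled H2030. Its log2 difference was -1.38 ± 0.15 for A549 minus labelled H2030 (limma, adjusted p = 0.000423) and -1.26 ± 0.15 for H1299 minus labelled H2030 (limma, adjusted p = 0.000632). A549 and H1299 did not differ detectably in CXADR, at -0.11 ± 0.15 (limma, adjusted p = 0.525). F11R, the gene of JAM-A, lay between 7.14 and 10.7 FPKM in every library, with 0 calls.

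The MARVEL-domain proteins divided as well. MARVELD3 was at 3.71 and 3.46 FPKM in the H2030-labelled libraries and at 0.08 to 0.32 in the others. MARVELD2, which encodes tricellulin of tricellular corners, was at 1.30 and 1.12 FPKM in A549, listed at 0 in both H1299 libraries, and at 0.23 and 0.19 in the libraries labelled H2030. MARVELD1 was the most abundant of this family at 25.9 to 26.0 FPKM in A549 and 13.5 to 19.7 in the other lines. OCLN, the occludin gene, ranged from 4.19 to 10.7 FPKM, and its line differences stayed below 2-fold. Of the scaffolds, TJP1, the gene of ZO-1, was at 37.2 and 37.7 FPKM in A549, 26.4 and 26.6 in H1299, and 22.1 and 16.9 in the libraries labelled H2030, with a log2 difference of 0.92 ± 0.13 for A549 minus labelled H2030 (limma, adjusted p = 0.00149). CGN, the gene of cingulin, was at 2.18 and 1.55 FPKM in A549, 4.24 and 4.29 in H1299, and 7.60 and 11.3 in the libraries labelled H2030. TJP1 and CGN thus stood in opposite order across the lines. The difference of CGN was called between A549 and the libraries labelled H2030 (log2 difference -1.85 ± 0.21; limma, adjusted p = 0.00062). TJP3, the gene of ZO-3, was at 0.29 to 1.57 FPKM and below the filter.

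The desmosomal cadherins were highest in the libraries labelled H2030. DSG2, a desmoglein, was at 76.2 and 63.4 FPKM there, at 25.1 and 28.9 in A549, and at 15.2 and 17.0 in H1299. DSC2, a desmocollin, was at 16.6 and 14.8 FPKM in the H2030-labelled libraries, at 1.38 and 1.71 in A549, and at 2.14 and 1.96 in H1299. DSC3, its neighbour on the chromosome, was at 18.6 and 15.1 FPKM in the H2030-labelled libraries, at 2.25 and 2.14 in A549, and at 0.39 and 0.50 in H1299. In all 3 genes the libraries labelled H2030 lay above the other 4 without overlap. The share of all genes with that separation was not counted. Of all genes tested, 20.8% were called lower in A549 than in the libraries labelled H2030, and 19% in H1299. Against A549 the log2 differences (A549 minus labelled H2030) were -1.34 ± 0.14 for DSG2, -2.72 ± 0.15 for DSC2 and -2.47 ± 0.15 for DSC3 (limma, adjusted p = 0.000403, 4.74e-05 and 6.84e-05). Against H1299, in a comparison that shares the libraries labelled H2030, they were -2.05 ± 0.14, -2.45 ± 0.15 and -3.62 ± 0.15 (limma, adjusted p = 9.64e-05, 7.12e-05 and 2.62e-05). DSC3 also differed between the other lines, at 1.15 ± 0.15 for A549 minus H1299 (limma, adjusted p = 0.00141), while DSC2 did not differ detectably (-0.26 ± 0.15; limma, adjusted p = 0.173). DSG2 supplied 87.4% and 88.2% of the summed FPKM of these 3 genes in A549, 85.8% and 87.3% in H1299, and 68.4% and 68.0% in the libraries labelled H2030.

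The promoters of these cadherin genes are shown because the genes were high together, and those of JUP and CLDN1 because each separates 1 line from the others. Each sequence is the 250 bases before a RefSeq start site on GRCh38.p14, the assembly family of hg38, written 5′ to 3′ on the gene's strand. Capitals mark CACCTG on either strand, which reads CAGGTG on the opposite strand and is the E-box bound by ZEB and SNAI factors. The windows are chr18:31497927-31498176 on the plus strand for DSG2, chr18:31102422-31102671 on the minus strand for DSC2, chr18:31042743-31042992 on the minus strand for DSC3, chr17:41785977-41786226 on the minus strand for a second start site of JUP, and chr3:190322447-190322696 on the minus strand for CLDN1.
DSG2: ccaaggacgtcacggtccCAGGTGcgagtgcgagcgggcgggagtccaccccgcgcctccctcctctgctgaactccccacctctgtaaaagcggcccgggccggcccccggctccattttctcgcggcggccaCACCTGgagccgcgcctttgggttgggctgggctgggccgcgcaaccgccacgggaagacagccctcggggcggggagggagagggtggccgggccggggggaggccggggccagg
DSC2: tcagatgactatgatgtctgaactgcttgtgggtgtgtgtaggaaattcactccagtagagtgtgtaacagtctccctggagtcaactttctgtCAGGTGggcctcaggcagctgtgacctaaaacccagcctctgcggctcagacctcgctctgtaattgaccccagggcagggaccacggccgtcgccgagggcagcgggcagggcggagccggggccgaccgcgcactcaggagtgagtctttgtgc
DSC3: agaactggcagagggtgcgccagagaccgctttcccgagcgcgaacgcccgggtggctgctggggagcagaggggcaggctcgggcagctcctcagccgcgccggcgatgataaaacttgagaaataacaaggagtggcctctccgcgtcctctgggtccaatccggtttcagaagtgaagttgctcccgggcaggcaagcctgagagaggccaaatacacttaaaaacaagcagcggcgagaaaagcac
JUP: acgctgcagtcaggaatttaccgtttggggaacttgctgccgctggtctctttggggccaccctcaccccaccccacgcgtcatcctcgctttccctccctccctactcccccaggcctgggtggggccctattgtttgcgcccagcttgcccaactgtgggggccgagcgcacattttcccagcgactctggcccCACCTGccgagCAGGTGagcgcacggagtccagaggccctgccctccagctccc
CLDN1: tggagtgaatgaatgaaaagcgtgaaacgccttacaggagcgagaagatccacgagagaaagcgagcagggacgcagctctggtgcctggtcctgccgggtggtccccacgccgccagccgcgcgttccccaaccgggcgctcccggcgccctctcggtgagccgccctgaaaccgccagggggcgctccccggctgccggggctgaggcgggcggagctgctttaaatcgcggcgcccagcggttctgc

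Positions are counted back from the start site, with -1 the base before it. The DSG2 window held 2 such matches, beginning at -232 and -116, the DSC2 window 1 at -156, and the DSC3 window 0. The JUP window shown held 2 matches, at -54 and -43. The windows of the other start sites of JUP and DSC2 held 0, as did the CLDN1 window. A match was in 17.5% of all 35116 windows and in 9 of the 35 windows (25.7%) that belong to 24 members. The motif AACNGGTT on either strand, the core recognised by Grainyhead-like factors, was in 1.49% of all windows and in 1 window of the members, that of CGN, at -27. No window of a member held both motifs, so no match overlapped another kind. A match describes letters in this window and is not a measured binding site.

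JUP did not follow the cadherins, and DSP did. JUP, the gene of plakoglobin, which links cadherin tails to desmoplakin, was at 63.4 and 47.7 FPKM in A549, at 48.3 and 39.9 in the H2030-labelled libraries, and at 2.51 and 3.22 in H1299. Both H1299 libraries were far below the other 4. The log2 difference was 3.86 ± 0.18 for A549 minus H1299 (limma, adjusted p = 3.15e-05) and -3.54 ± 0.18 for H1299 minus labelled H2030 (limma, adjusted p = 4.09e-05). The ratio of JUP to DSG2 in FPKM was 2.52 and 1.65 in A549, 0.634 and 0.629 in the libraries labelled H2030, and 0.165 and 0.190 in H1299. H1299 therefore had DSG2 mRNA at 15.2 and 17.0 FPKM with little plakoglobin mRNA. DSP, the desmoplakin gene, was highest where the cadherins were, at 24.2 and 27.7 FPKM in the H2030-labelled libraries, at 8.60 and 7.34 in A549, and at 6.24 and 5.28 in H1299. Its log2 difference was -1.59 ± 0.15 for A549 minus labelled H2030 (limma, adjusted p = 0.000256) and -1.99 ± 0.15 for H1299 minus labelled H2030 (limma, adjusted p = 0.000123).

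The plakophilins, armadillo proteins that cluster desmosomal cadherins, differed between lines in their proportions. PKP3 was at 15.9 and 12.2 FPKM in A549, at 1.53 and 1.57 in H1299, and at 0.80 and 0.86 in the libraries labelled H2030. PKP2 was at 1.36 and 1.39 FPKM in A549, at 7.76 and 7.20 in H1299, and at 6.08 and 9.16 in the libraries labelled H2030. PKP4, which is also found at adherens junctions, was at 47.3 and 45.5 FPKM in H1299, at 18.5 and 17.9 in A549, and at 20.8 and 19.3 in the libraries labelled H2030. A549 thus stood apart by high PKP3 and low PKP2, and H1299 by high PKP4. PKP2 did not differ detectably between H1299 and the libraries labelled H2030 (limma, adjusted p = 0.998), nor PKP4 between A549 and those libraries (limma, adjusted p = 0.271). For A549 minus H1299 the log2 differences were 2.55 ± 0.16 for PKP3, -1.84 ± 0.19 for PKP2 and -1.30 ± 0.10 for PKP4 (limma, adjusted p = 9.54e-05, 0.000487 and 0.000165). PKP3 and PKP2 were also called between A549 and the libraries labelled H2030, at 3.02 ± 0.16 and -1.84 ± 0.19 (limma, adjusted p = 4.3e-05 and 0.000364). PKP4 was called between H1299 and the libraries labelled H2030, at 1.17 ± 0.10 (limma, adjusted p = 0.000188). PKP3 made up 44.4% and 38.6% of the summed FPKM of the 3 plakophilins in A549, and PKP4 had the largest share in every library, from 51.8% in A549 with empty vector to 83.8% in H1299 with malin. PERP, a tetraspan desmosomal protein and p53 target, was at 28.1 to 58.8 FPKM in every library, with 0 calls.

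**Figure D3:**
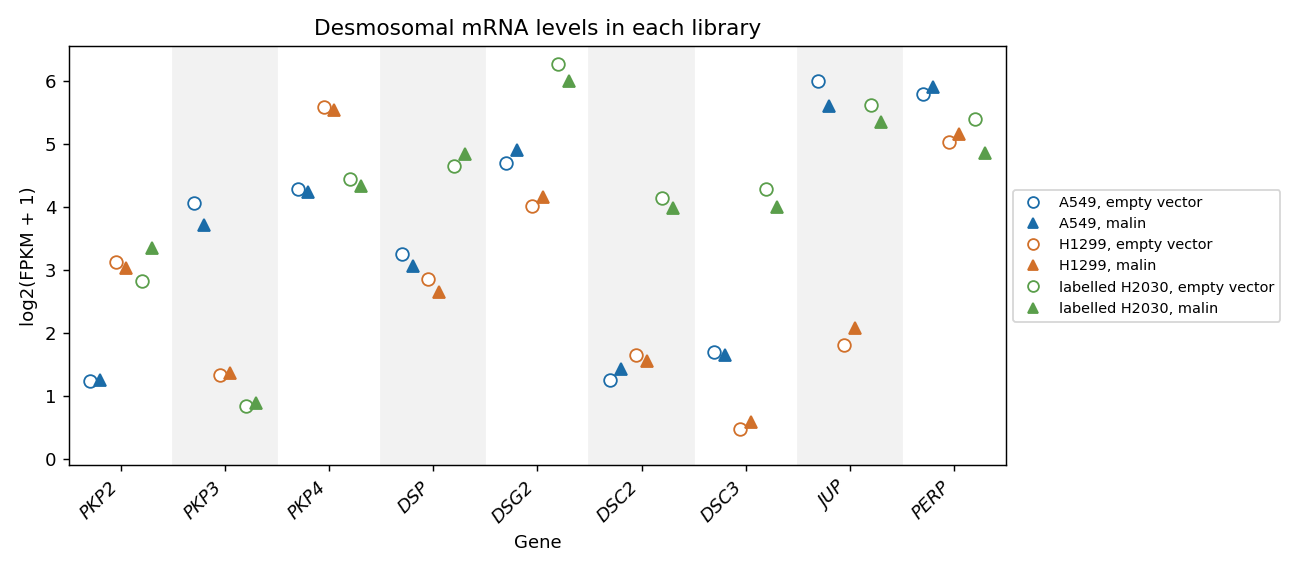
Levels of the 9 measured desmosomal genes in each library, as log2(FPKM + 1) on the vertical axis and by gene on the horizontal axis, with open circles for empty vector and triangles for malin. DSG2, DSC2, DSC3 and DSP are highest in the libraries labelled H2030, and JUP is at 2.51 and 3.22 FPKM in H1299.

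Of the polarity genes, PARD3, which encodes the PAR3 scaffold, separated A549 from the rest. It was at 46.7 and 46.7 FPKM in A549, at 9.04 and 8.95 in H1299, and at 12.2 and 12 in the libraries labelled H2030, and within each line the vectors gave nearly the same value. The log2 difference was 2.25 ± 0.10 for A549 minus H1299 (limma, adjusted p = 3.13e-05) and 1.87 ± 0.10 for A549 minus labelled H2030 (limma, adjusted p = 4.78e-05). The PAR6 genes stood in opposite order in A549 and H1299. PARD6A was at 3.09 and 1.89 FPKM in A549, 5.65 and 6.26 in H1299, and 4.33 and 3.15 in the libraries labelled H2030. PARD6B was at 2.01 and 3.02 FPKM in A549, 0.63 and 0.58 in H1299, and 1.65 and 1.30 in the libraries labelled H2030. For A549 minus H1299 the log2 differences were -1.02 ± 0.19 for PARD6A and 1.12 ± 0.19 for PARD6B (limma, adjusted p = 0.00479 and 0.00344). Without the A549 malin library neither was called, and without the H1299 malin library PARD6A was not. PRKCI, the gene of atypical protein kinase C iota, lay between 11.5 and 22.7 FPKM with 0 calls. EPCAM was at 8.55 and 5.41 FPKM in the H2030-labelled libraries, at 1.75 and 0.95 in A549, and at 0.17 and 0.19 in H1299, where an estimated 3 fragments stood behind each value. Its log2 difference was -1.76 ± 0.19 for A549 minus labelled H2030 (limma, adjusted p = 0.000465) and -2.73 ± 0.19 for H1299 minus labelled H2030 (limma, adjusted p = 0.000103). EPCAM passed the filter only with the libraries labelled H2030, so these differences are descriptions.

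Counted over the 27 members tested, which were listed with earlier results of these data known, the line differences were as follows. For A549 minus H1299, 5 members were higher (PKP3, DSC3, JUP, PARD3 and PARD6B), where 11.3% of all genes tested were, and 5 were lower (CLDN12, JAM3, PKP2, PKP4 and PARD6A), where 12.8% of all genes were. Over the libraries of A549 and H1299 alone the same 10 were called. For A549 minus labelled H2030, 4 members were higher (background 10.6%) and 11 lower (background 20.8%). For H1299 minus labelled H2030, 3 were higher (background 10.7%) and 9 lower (background 19%). The members' median log2 difference was 0.31, -0.49 and -0.41 in these 3 comparisons, beside -0.09, -0.29 and -0.22 over all genes tested. Median-of-ratios scaling moved the median of all genes by 0.32 and 0.24 in the comparisons with the libraries labelled H2030. With it the members called higher and lower were 6 and 10 for A549 minus labelled H2030, beside 15.7% and 13.2% of all genes, and 3 and 9 for H1299 minus labelled H2030, beside 14.8% and 13.6%. The members called above kept their sign under that scaling, though DSG2 in A549 minus labelled H2030 and PARD6A in A549 minus H1299 fell short of the call. Leaving out the malin library labelled H2030, whose header names another line, changed the sign of 0 called members in these comparisons. It cannot tell which line these libraries come from, because the empty-vector library that remains had similar levels. For example, CLDN1 was at 1.02 and 0.89 FPKM and CLDN6 at 6.66 and 8.74 in this pair.

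**Figure D4:**
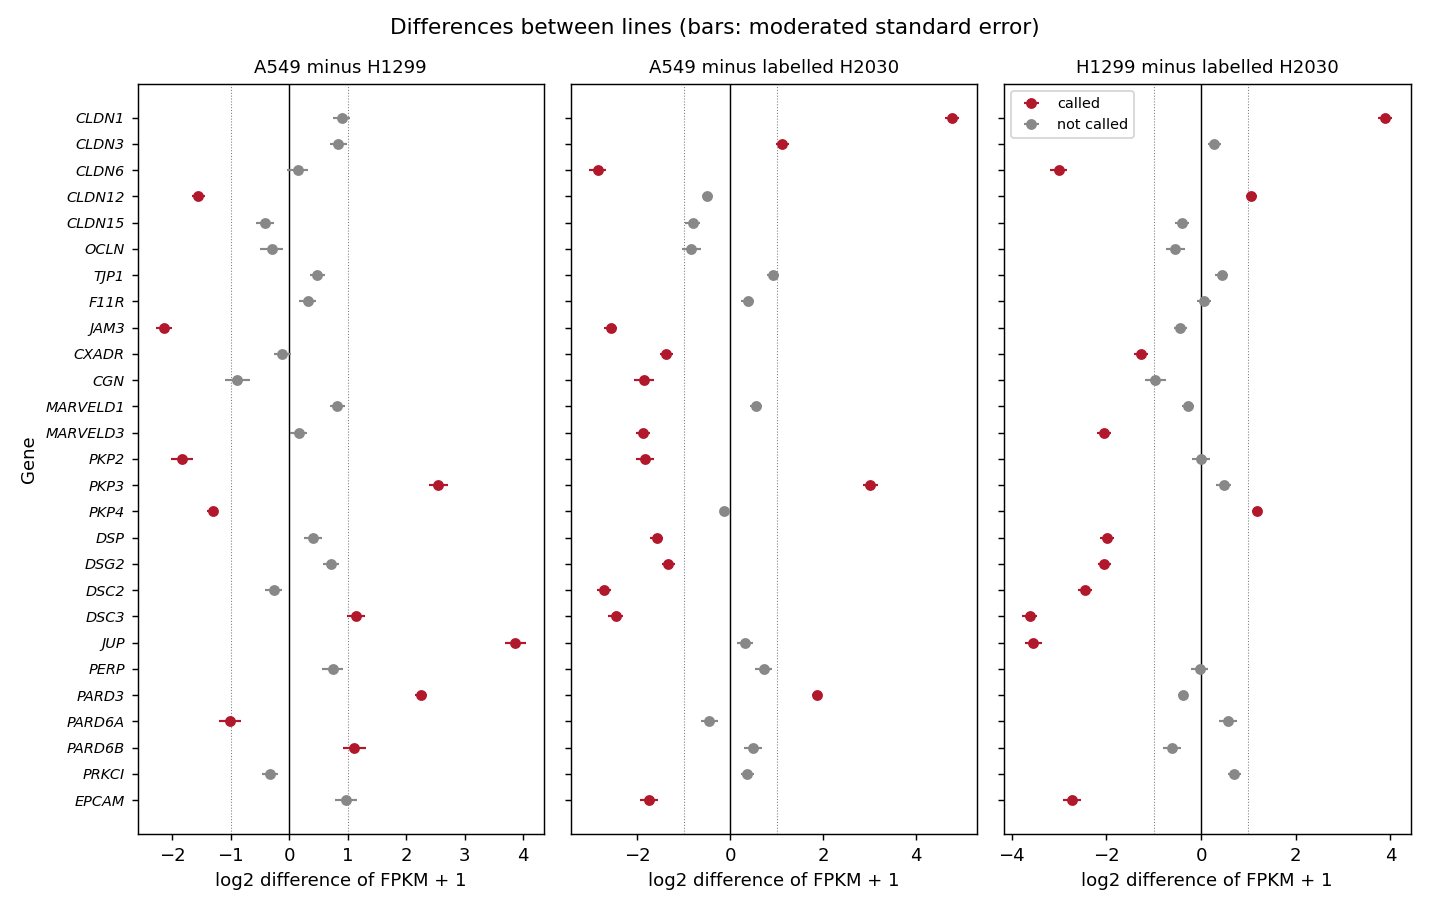
Differences between lines for the 27 members tested, as log2 difference of FPKM + 1 on the horizontal axis of each panel and by gene on the vertical axis, with bars for limma's moderated SE and red for called differences. JUP has the largest difference between A549 and H1299 (3.86), and CLDN1 the largest in both comparisons with the libraries labelled H2030 (4.78 and 3.89).

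Other genes of these structures, from a list of 41 of which 39 were in the tables and 20 passed the filter, are given as counts beside the shares over all genes. For A549 minus H1299, 4 were higher and 5 lower, beside 11.3% and 12.8% of all genes. For A549 minus labelled H2030, 2 were higher and 8 lower, beside 10.6% and 20.8%. For H1299 minus labelled H2030, 1 was higher and 3 lower, beside 10.7% and 19%. EVPL, which encodes the desmosomal plakin envoplakin, was at 8.65 and 7.82 FPKM in A549 and at 0.04 or less in the other lines, so that it passed the filter through A549 only. LSR, the receptor that recruits tricellulin to cell corners, was at 1.29 and 1.41 FPKM in A549, at 18.3 and 19.8 in H1299, and at 12.4 and 9.43 in the libraries labelled H2030. LSR was thus low in A549, where MARVELD2, the tricellulin gene, was at 1.30 and 1.12 FPKM, and high in H1299, where MARVELD2 was listed at 0. LLGL2, a basolateral polarity gene, was at 11.9 and 9.10 FPKM in A549, 1.87 and 2.64 in H1299, and 6.36 and 11.1 in the libraries labelled H2030. JAM2 was at 0.02 and 0.05 FPKM in A549, 2.04 and 2.24 in H1299, and 4.23 and 1.37 in the libraries labelled H2030. CLDN23 was at 4.47 and 4.71 FPKM in A549 and between 0.66 and 1.70 elsewhere.

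A list of 17 regulators of epithelial identity held 10 that passed the filter. For A549 minus H1299, 5 of these were higher and 1 lower, beside 11.3% and 12.8% of all genes. For A549 minus labelled H2030, 1 was higher and 2 lower, beside 10.6% and 20.8%. For H1299 minus labelled H2030, 0 were higher and 4 lower, beside 10.7% and 19%. These counts are descriptions, since ELF3 passed through A549 only, and GRHL1 and ESRP2 through the libraries labelled H2030 only, and had to be highest there. ELF3, an epithelial ETS factor, was at 62.6 and 35.3 FPKM in A549 and at 0.04 or less in the other lines. ESRP2, an epithelial splicing regulator, was at 7.94 and 12.2 FPKM in the H2030-labelled libraries and at 0.79 to 0.94 in the others. GRHL1, a Grainyhead-like factor, was at 6.01 and 5.11 FPKM there and at 0.49 to 1.08 in the others. KLF5, a Krüppel-like factor, was at 12.6 and 12.3 FPKM in A549, 2.41 and 2.78 in H1299, and 11 and 7.07 in the libraries labelled H2030. CDH1, the E-cadherin gene, was at 3.27 and 1.67 FPKM in A549, 0.02 and 0 in H1299, and 2.56 and 2.71 in the libraries labelled H2030. H1299, with the lowest JUP and EPCAM, was also lowest in KLF5 and CDH1, as it was in SNAI1 and TWIST2, given below. ZEB2, a repressor of epithelial genes, was at 1.21 and 1.32 FPKM in A549, 4.53 and 4.67 in H1299, and 4.04 and 2.44 in the libraries labelled H2030. SNAI1 lay between 0.57 and 3.51 FPKM and TWIST2 between 2.32 and 7.49, both highest in A549 and lowest in H1299 by line mean. Whether any of these regulators bears on the junction genes was not tested.

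No member was called for malin against empty vector over the 3 lines. With the line as a block, 0 of 27 members passed an adjusted p of 0.05 in limma, beside 0 of 12184 genes (0%), and 0 members had an unadjusted p under 0.05, beside 213 genes (1.75%). The smallest adjusted p of a member was 0.927 (limma), so the data do not show a shared change, and they do not show its absence. The introduced gene NHLRC1 was itself not called, at a log2 difference of 2.93 ± 0.60 (limma, adjusted p = 0.927). The lack of calls therefore says little about the members. Differences within a line, log2((malin+1)/(empty vector+1)), have 1 library per vector and no test. None of the 27 members passed 1.5-fold in any line. Over all genes tested, 0.542% were higher and 0.583% lower by at least 1.5-fold in A549, 0.328% and 0.148% in H1299, and 4.28% and 7.33% in the libraries labelled H2030. In A549 the members' median log2 difference was -0.04 beside 0 over all genes, in H1299 0.01 beside 0.0050, and in the H2030-labelled pair -0.11 beside -0.03. In the libraries labelled H2030, 20 of 27 members were lower with malin, beside 53.2% of all genes. In A549 17 were lower, beside 48.8%, and in H1299 12, beside 46.7%.

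Among the members below the filter, TJP3 in A549 passed 1.5-fold, at 1.04 and 0.29 FPKM (log2 difference -0.66). Its differences in H1299 and in the libraries labelled H2030 had the opposite sign, at 0.22 and 0.44, from 0.47 and 0.71 FPKM and from 0.89 and 1.57. With a pseudocount of 5 the A549 difference was -0.19. Members named next are the ends of the range in each line and were chosen after their values were seen. In A549 the tested members ran from PARD6A (-0.50) to PARD6B (0.42), the paired PAR6 genes described above. JUP lay within that range at -0.40 (63.4 and 47.7 FPKM). In H1299 they ran from DSP (-0.21) to JUP (0.27), the narrowest span of the 3 lines. In the libraries labelled H2030 they ran from EPCAM (-0.58, 8.55 and 5.41 FPKM) to PKP2 (0.52, 6.08 and 9.16 FPKM), with PERP at -0.53 (41.1 and 28.1 FPKM) and CGN at 0.51 (7.60 and 11.3 FPKM). EPCAM was also lower with malin in A549 (-0.50) but not in H1299 (0.02), and its mean over the lines was -0.35 ± 0.33 (SD, n = 3, two-sided exact permutation p = 0.5). The A549 values of EPCAM, 1.75 and 0.95 FPKM, rest on an estimated 29 and 16 fragments. Their 95% exact Poisson intervals overlap (1.16 to 2.49 and 0.540 to 1.53 FPKM, counting error only). In the libraries labelled H2030 the intervals did not overlap for EPCAM (7.04 to 10.2 and 4.36 to 6.71 FPKM). The same held there for PERP (39.0 to 43.3 and 26.5 to 29.7) and CGN (6.78 to 8.48 and 10.4 to 12.3). PARD6B in A549 did not overlap either (1.62 to 2.45 and 2.54 to 3.55). Counting error leaves out variation between cultures, which 1 library per vector cannot show.

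CLDN3, PKP4, PARD3 and PRKCI were lower with malin in all 3 lines, and 0 members were higher in all 3. In the single lines 48.8% (A549), 46.7% (H1299) and 53.2% (labelled H2030) of all genes were lower. Genes lower in all 3 lines were not counted over all genes, so the count of members is a description. PARD3 was nearly the same with either vector, at 46.71 and 46.66 FPKM in A549. The mean log2 differences of CLDN3, PKP4, PARD3 and PRKCI were -0.15 ± 0.12, -0.07 ± 0.03, -0.01 ± 0.01 and -0.19 ± 0.22 (SD, n = 3). An exact two-sided permutation test over the 3 pairs gave p = 0.25 for each, the smallest that this design allows. H1299, with NHLRC1 at 119.2 FPKM, had member differences between -0.21 and 0.49, including those below the filter. The central 95% of all genes tested ran from -0.36 to 0.37 in A549, from -0.26 to 0.33 in H1299 and from -0.86 to 0.69 in the H2030-labelled pair. Outside it lay TJP3 (-0.66), PARD6A (-0.50), EPCAM (-0.50), JUP (-0.40) and PARD6B (0.42) in A549, CLDN4 (0.49) and CLDN10 (0.44) in H1299, and 0 members in the H2030-labelled pair. TJP3, CLDN4 and CLDN10 are below the filter, where all genes tested are above it. Over all genes tested the SD of the log2 differences was 0.18 for A549, 0.16 for H1299 and 0.40 for the H2030-labelled pair, so a given difference stands out less in that pair. Of the other genes listed, ELF3 and CDH1 were at least 1.5-fold lower with malin in A549, and in the H2030-labelled pair LLGL2 was higher and JAM2 lower by that much.

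**Figure D5:**
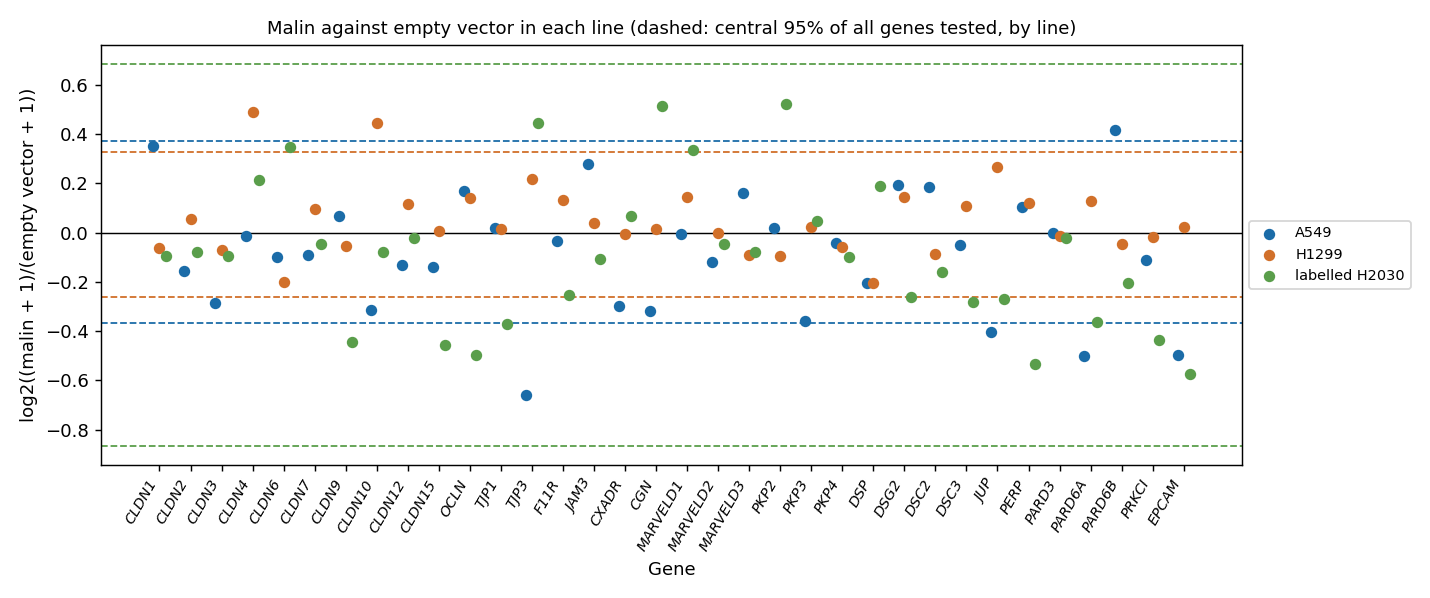
Log2((malin + 1)/(empty vector + 1)) of the 34 members on the vertical axis, by gene on the horizontal axis, with 1 point per line and dashed lines at the central 95% of all genes tested in that line. Outside their dashed lines lie 5 members in A549 (TJP3, PARD6A, EPCAM, JUP and PARD6B), 2 in H1299 (CLDN4 and CLDN10) and 0 in the libraries labelled H2030.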

How the data were processed

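The 6 RNA sequencing libraries were used as deposited. The authors gave 1 FPKM value per gene and library, a unit stated per the file headers. Tools listed in the submitters' processing notes are STAR, Cufflinks, cutadapt and FastQC, with hg38 as the build. Versions and strand use are not given in the sources used here, so overlapping and antisense genes may share fragments. Vector and line came from the labels. The members and lists were chosen with earlier results of these data known.

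Symbols that were blank or dates (26) were replaced by Entrez identifier. Genes that RefSeq types as protein-coding, with a mean of at least 1 FPKM (12184), entered limma 3.58.1 (R 4.3.3) as log2(FPKM+1), with lmFit and eBayes with an intensity trend, line and vector as terms, 2 residual degrees of freedom and Benjamini-Hochberg adjustment over all genes tested. Pairs in the vector comparison follow the cell line label. The script was tested on simulated data. Pseudocounts of 0.1 and 5, other filters, median-of-ratios scaling, no trend, no block or vector term, and left-out libraries were tried. Every member was named, with its value in each library where it had at least 1 FPKM in a library and a 2-fold span of line means, or 1.5-fold between vectors, and most others by their range. Of the other lists up to 6 and 8 with the widest span were named, except 1 that is not reported here.

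Depth was estimated from values under 0.5 FPKM of genes with 1 transcript of 600 to 2000 bases. Each value was multiplied by the length less 100 bases, and the fragment total was chosen from a fixed grid so that most products came out whole. Between 81.2% and 83.6% then lay within 0.2 of a whole number. Promoter windows are RefSeq's for GRCh38.p14, and gene positions are GENCODE's (release 29). Python 3.11.15, pandas 2.3.3, scipy 1.17.1 and matplotlib 3.10.9 were used.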

Additional observations from a re-analysis of the deposited data

How the results depend on the processing

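Between lines, the number of members called ranged from 6 to 13 over 14 alternatives for A549 minus H1299 (10 as reported), from 10 to 17 over 13 for A549 minus labelled H2030 (15) and from 9 to 14 over 13 for H1299 minus labelled H2030 (12), and 0 called members changed sign in any of them. A pseudocount of 5, which shrinks low genes, gave 6 calls for A549 minus H1299, without DSC3, PARD6A, PKP2 and PARD6B. It also ended the calls of CLDN3, CXADR, EPCAM, PKP2 and MARVELD3 for A549 minus labelled H2030, and of CXADR, CLDN12 and MARVELD3 for H1299 minus labelled H2030. A mean of at least 5 FPKM leaves low members untested, CLDN6, EPCAM and MARVELD3 among them. With no filter, CLDN2 and MARVELD2 were added for A549 minus H1299, CLDN2 and CLDN7 for A549 minus labelled H2030, and CLDN7 for H1299 minus labelled H2030. Without the H1299 malin library CLDN12 was lost for H1299 minus labelled H2030. For malin against empty vector 0 members were called under every alternative run, including with no replicate block (smallest adjusted p of a member 1, limma) and without each line (0.967 to 1; 2 members had an unadjusted p under 0.05 without H1299). The median of the members in the libraries labelled H2030 was -0.18 with a pseudocount of 0.1 against -0.11 as reported, and the other medians moved by less than the SD of the 3 line medians. Depth limits the low members: near 1 FPKM, CLDN1 rested on an estimated 29 and 30 fragments in the libraries labelled H2030.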

Other observations

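Members that are neighbours in the genome were alike over the lines in some cases and not in others (GENCODE release 29 on GRCh38). DSC3 and DSC2 lie on chromosome 18, 16024 bases apart on the minus strand, from 30990008 to 31042815 and from 31058840 to 31102522, and DSG2 lies 395.5 kb further on, from 31498043 to 31549008 on the plus strand. All 3 were highest in the libraries labelled H2030. The 4 coding genes that lie between DSC2 and DSG2 are the skin-type cadherins DSC1, DSG1, DSG4 and DSG3, which were at 0.29 FPKM or less in every library. DSC2 and DSC3 differed from each other in H1299, where the ratio of DSC2 to DSC3 in FPKM was 5.49 and 3.92 with empty vector and malin, against 0.613 and 0.799 in A549 and 0.897 and 0.981 in the libraries labelled H2030.

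CLDN9 and CLDN6 lie on chromosome 16 with 206 bases between them, from 3012456 to 3014505 and from 3014712 to 3020071 on opposite strands. CLDN6 was at 6.66 and 8.74 FPKM in the H2030-labelled libraries and CLDN9 at 0.36 and 0, an estimated 6 and 0 fragments. CLDN3 and CLDN4, 29.3 kb apart on chromosome 7, were both highest in A549, at 2.73 and 2.06 and at 1.18 and 1.16 FPKM. MARVELD2 and OCLN, 48.0 kb apart on chromosome 5, were not alike. MARVELD2 was highest in A549 and OCLN lowest there, at 4.19 and 4.83 FPKM against 5.44 and 6.09 in H1299 and 10.7 and 7.26 in the libraries labelled H2030. These patterns were noticed in the values and were not tested.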
